A study of Mus musculus with 8 samples.

Results

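The data describe 10 genes that form 5 pairs of genomic neighbours, chosen from a table of 22810 genes by their symbols. The pairs are Fam198b and Tmem144, Gramd1b and Zfp202, E2f3 and Mboat1, Dap and Ankrd33b, and Bend4 and C330024D21Rik. They entered this list because maternal and paternal reads of the same embryos had shown a paternal bias, so the parental difference of these genes is given as a description, and nothing is read from how many pass a threshold for it. Single blastocysts were collected on embryonic day 3.5 after natural mating and lysed without culture, and polyadenylated RNA was sequenced embryo by embryo with SMART-Seq2, a full-length cDNA method for very small inputs. Forward embryos, 3 in number, had a C57BL/6 (B6) mother and a Mus musculus castaneus (cast) father. Reverse embryos, numbered 1, 2, 3, 5 and 7, had a cast mother and a B6 father. All embryos were F1 hybrids with no edited allele and no treatment, and the labels do not name their litters. Reads spanning a SNP between both strains were counted per gene and strain, so the maternal allele is B6 in forward and cast in reverse embryos. Each embryo is 1 whole blastocyst, a mixture of trophectoderm and inner cell mass.

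Genomic imprinting is the transcription of a gene mainly from the copy inherited from 1 parent. Imprinted genes often lie side by side, since a single control region, marked differently in egg and sperm by DNA methylation or by the histone modification H3K27me3, can act on several genes around it. In the preimplantation embryo, maternal H3K27me3 is known to silence the maternal copy of a number of genes, which are then read from the paternal copy.

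Between 1060063 and 1632695 SNP-spanning reads were counted per embryo, and B6 alleles took 57.4% to 58.3% of them. Marker genes of blastocyst tissues were present in every embryo, with a summed 903 to 4976 RPM (reads per 1000000 SNP-spanning reads) for 6 trophectoderm genes, 423 to 880 for 5 genes of the inner cell mass and 173 to 328 for 4 genes of the primitive endoderm. The list of 10 markers of leukocytes and macrophages had 1535 maternal and 24 paternal reads. Forward embryo 1 held 1402 of the maternal reads and stood at 861 RPM for this list with 9 of its 10 genes detected, whereas the other embryos lay between 3.77 and 56.4. Reverse embryo 1 differed more from its group than any other embryo, with a chi-square per degree of freedom of 40.3 to 71.4 against the other reverse embryos and of 7.53 to 20.5 among those. It also had the lowest trophectoderm level, 903 RPM. All 8 embryos were kept.

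In gene order on the mouse genome (mm10, GENCODE M21), Tmem144 and Fam198b span chromosome 3 from 79812564 to 79946280, Zfp202 and Gramd1b chromosome 9 from 40192316 to 40531383, and E2f3 and Mboat1 chromosome 13 from 29906575 to 30246717. Dap and Ankrd33b span chromosome 15 from 31224314 to 31367726, and Bend4 and C330024D21Rik chromosome 5 from 67392147 to 67477632. Of the pairs, 3 are transcribed away from each other, with 31.8 kb between Tmem144 and Fam198b, 150.4 kb between E2f3 and Mboat1 and 35.6 kb between Bend4 and C330024D21Rik. The other pairs point toward each other, with 17.1 kb between Dap and Ankrd33b and 79.6 kb between Zfp202 and Gramd1b. GENCODE annotates 9 genes as protein coding and C330024D21Rik as a processed transcript without coding sequence.

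The number of CG dinucleotides around the start sites ranged from 3 to 32. RefSeq promoter windows on GRCm38.p6, 250 bases before to 50 bases after a start, were matched for 9 of 10 genes and searched for the dinucleotide CG, which reads the same on both strands and is the site of DNA methylation. The 300 bases at Tmem144 and at Fam198b held 3 CG each, a number reached by 76.7% of 32851 promoters, with 53.0% and 39.7% G and C. The windows of Dap and Ankrd33b held 32 and 22 CG, reached by 9.52% and 23.1% of promoters. Mboat1 had 29, Bend4 27, Zfp202 17, E2f3 16 and C330024D21Rik 7. The median was 17 over the 9 windows and 7 over all promoters. The RefSeq start of Fam198b, listed there as Gask1b, lies 1397 bases from the GENCODE start and that of Bend4 511 bases. Those windows thus describe the RefSeq start only. RefSeq lists 4 starts for Tmem144 and 2 for E2f3, and only the start farthest upstream was taken. Among the 4 pairs with a window for both genes, those with the fewest and the most CG are printed 5′ to 3′ on the transcribed strand, with each CG in capitals.
Tmem144 (chr3:79852719-79853018, minus strand): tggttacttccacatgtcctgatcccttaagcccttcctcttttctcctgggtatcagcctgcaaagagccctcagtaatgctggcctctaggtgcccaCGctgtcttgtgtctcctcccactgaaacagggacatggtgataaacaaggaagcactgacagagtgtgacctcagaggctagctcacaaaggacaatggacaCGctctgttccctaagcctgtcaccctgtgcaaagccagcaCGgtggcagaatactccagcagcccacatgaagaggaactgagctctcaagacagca
Fam198b (chr3:79885680-79885979, plus strand): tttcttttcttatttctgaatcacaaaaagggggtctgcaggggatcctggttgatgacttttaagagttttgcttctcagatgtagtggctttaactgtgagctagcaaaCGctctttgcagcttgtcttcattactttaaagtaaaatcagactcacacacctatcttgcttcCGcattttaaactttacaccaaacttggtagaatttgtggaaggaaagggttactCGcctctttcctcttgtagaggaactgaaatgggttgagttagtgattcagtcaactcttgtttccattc
Dap (chr15:31224135-31224434, plus strand): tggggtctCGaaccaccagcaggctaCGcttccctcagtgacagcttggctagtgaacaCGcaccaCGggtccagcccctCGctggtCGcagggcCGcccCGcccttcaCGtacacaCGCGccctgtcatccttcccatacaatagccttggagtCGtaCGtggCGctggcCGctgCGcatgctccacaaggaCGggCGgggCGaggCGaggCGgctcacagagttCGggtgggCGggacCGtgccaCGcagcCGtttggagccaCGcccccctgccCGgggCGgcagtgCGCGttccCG
Ankrd33b (chr15:31367710-31368009, minus strand): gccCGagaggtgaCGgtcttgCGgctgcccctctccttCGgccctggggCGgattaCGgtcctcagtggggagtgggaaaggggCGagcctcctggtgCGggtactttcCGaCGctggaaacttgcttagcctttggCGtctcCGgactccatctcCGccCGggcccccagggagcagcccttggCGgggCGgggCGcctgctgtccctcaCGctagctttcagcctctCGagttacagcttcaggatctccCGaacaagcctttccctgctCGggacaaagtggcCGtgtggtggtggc

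Every member with reads was more paternal than maternal in 7 or 8 embryos. The exceptions were Mboat1 in forward embryo 1, Ankrd33b in forward embryo 2 and C330024D21Rik in reverse embryo 7, where it had no read. The genes are given one by one as maternal and paternal SNP-spanning reads in forward embryos 1, 2 and 3 and then in reverse embryos 1, 2, 3, 5 and 7.

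Fam198b, which encodes a protein of the Golgi apparatus, had 0 maternal and 95 paternal, 1 and 22, and 0 and 21 reads in the forward embryos. In the reverse embryos it had 8 and 63, 0 and 32, 0 and 20, 0 and 10, and 0 and 18 reads. It was thus read from the paternal allele in both crosses, and 8 of its 9 maternal reads came from reverse embryo 1. Paternal shares averaged 98.6% ± 2.51 over the forward (SD, n = 3) and 97.7% ± 5.04 over the reverse embryos (SD, n = 5).

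Tmem144, which encodes a membrane protein with several transmembrane segments, had 104 and 221, 85 and 120, and 31 and 128 reads in the forward embryos. The reverse embryos gave 6 and 166, 4 and 174, 9 and 248, 2 and 249, and 6 and 210 reads. The maternal allele was therefore read at a sizeable level in every forward embryo and scarcely in any reverse embryo. Paternal shares were 69.0% ± 11.02 (SD, n = 3) and 97.4% ± 1.12 (SD, n = 5), and the crosses did not overlap.

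Gramd1b, a protein of the endoplasmic reticulum that takes up cholesterol from the plasma membrane, had 14 and 38, 3 and 31, and 5 and 19 reads in the forward embryos. Its reverse reads were 0 and 166, 2 and 87, 0 and 30, 0 and 55, and 0 and 19. The maternal reads were concentrated in the forward embryos, and 58.3% of them came from forward embryo 1. Paternal shares were 81.1% ± 9.21 (SD, n = 3) and 99.6% ± 1.005 (SD, n = 5).

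Its neighbour Zfp202, a zinc finger repressor of transcription, was covered by 71 reads. They were 0 and 13, 0 and 7, and 1 and 7 in the forward embryos and 0 and 17, 0 and 13, 0 and 3, 0 and 5, and 0 and 5 in the reverse embryos. A single maternal read was thus found in 8 embryos, a ratio of 70 paternal reads per maternal read with an exact 95% interval of 12.2 to 2804. The 0 of 43 maternal reads in the reverse embryos allow a maternal share of up to 6.98%. These intervals and limits cover counting error only, since PCR copies are not independent molecules.

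E2f3, a transcription factor of the E2F family that drives entry into S phase, had 0 and 64, 18 and 26, and 0 and 36 reads in the forward embryos. In the reverse cross it had 0 and 107, 0 and 44, 0 and 19, 2 and 31, and 0 and 18 reads. No maternal read was found in 6 embryos, while forward embryo 2 carried 90.0% of the maternal reads at a paternal share of 59.1% (exact 95% binomial interval 43.2 to 73.7). The mean was 86.4% ± 23.6 over the forward (SD, n = 3) and 98.8% ± 2.71 over the reverse embryos (SD, n = 5).

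Mboat1, an enzyme that attaches acyl chains to lysophospholipids, had 22 and 15, 3 and 18, and 4 and 21 reads in the forward embryos. The reverse embryos held 0 and 34, 0 and 17, 0 and 2, 2 and 26, and 0 and 27 reads. Forward embryo 1 was the only one with more maternal than paternal reads, at 40.5% paternal (exact 95% binomial interval 24.8 to 57.9), against 85.7% (63.7 to 97.0) and 84.0% (63.9 to 95.5) in forward embryos 2 and 3. This is also the embryo with the high leukocyte and macrophage markers, and their part in the maternal reads of Mboat1, Gramd1b and Tmem144 was not tested. The reverse mean was 98.2% ± 3.57 (SD, n = 4), leaving out the embryo with 2 reads, and shares were formed throughout from at least 5 reads.

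Dap, a negative regulator of autophagy, had 769 and 1245, 733 and 905, and 748 and 1076 reads in the forward embryos. Reverse reads were 49 and 511, 521 and 2099, 226 and 1864, 121 and 1051, and 35 and 1268. Here the paternal lead in raw reads was small in the forward embryos, at 55.3% to 61.8%, and large in the reverse embryos, at 80.1% to 97.3%. These shares are not corrected for the B6 alleles, which took 57.4% to 58.3% of all reads of an embryo and are maternal in the forward cross. The means were 58.7% ± 3.29 (SD, n = 3) and 89.5% ± 6.17 (SD, n = 5).

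Ankrd33b, whose product contains ankyrin repeats, had 35 and 42, 46 and 43, and 42 and 59 reads in the forward embryos. The reverse cross gave 0 and 62, 1 and 21, 6 and 115, 2 and 20, and 0 and 66 reads. Its raw reads were close to even in the forward embryos, where the exact 95% binomial intervals of all 3 shares included 50%. They were almost entirely paternal in the reverse embryos. Since B6 alleles, maternal in the forward cross, took 57.4% to 58.3% of all reads, 50% need not be the share of a gene without parental bias. The means were 53.8% ± 5.10 (SD, n = 3) and 96.3% ± 3.83 (SD, n = 5).

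Bend4, a protein with a BEN domain, had 7 and 33, 11 and 28, and 22 and 34 reads in the forward embryos. Among the reverse embryos the reads were 0 and 121, 0 and 105, 1 and 27, 17 and 82, and 5 and 36. All forward shares lay below all reverse shares, although reverse embryo 5, at 82.8%, nearly met forward embryo 1, at 82.5%. The means were 71.7% ± 10.9 (SD, n = 3) and 93.4% ± 7.74 (SD, n = 5).

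The noncoding C330024D21Rik had 1 and 20, 0 and 13, and 0 and 5 reads in the forward embryos and 0 and 122, 0 and 3, 0 and 1, 0 and 2, and 0 and 0 in the reverse embryos. Reverse embryo 1 thus held 122 of its 128 reverse reads. With 1 maternal read the ratio was 166 paternal reads per maternal read, with an exact 95% interval of 29.4 to 6596, and the 0 of 128 maternal reads in reverse embryos allow a maternal share of up to 2.34%. The forward mean was 98.4% ± 2.75 (SD, n = 3), and a single reverse embryo had 5 or more reads.

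**Figure D1:**
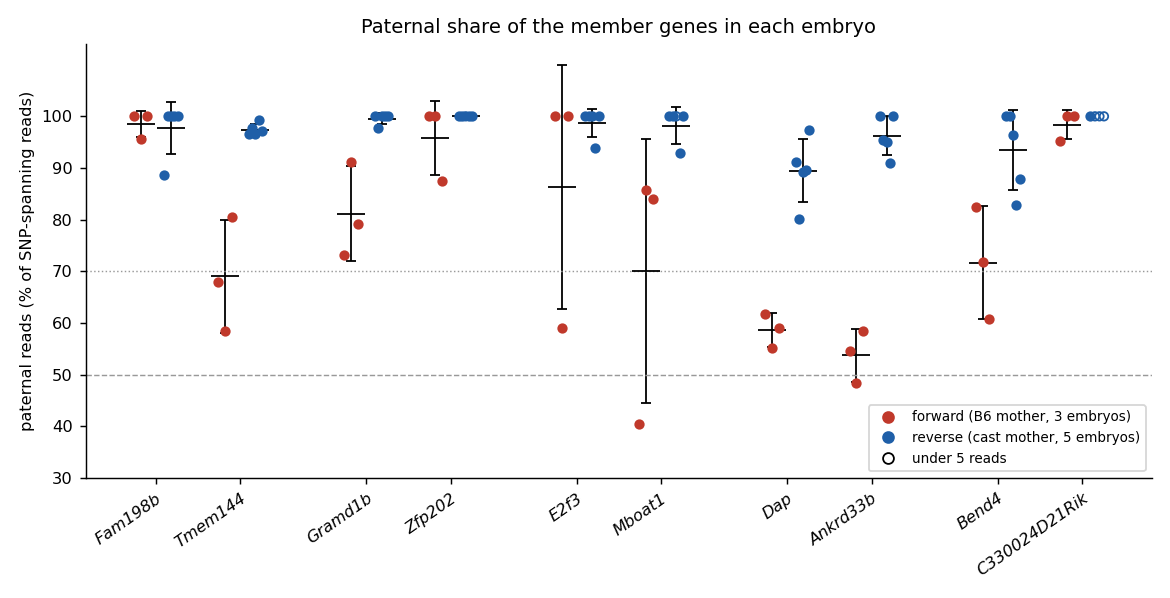
Paternal reads as a percentage of all SNP-spanning reads of a gene (y axis) for the 10 genes (x axis, neighbours side by side), 1 point per embryo with the forward cross in red and the reverse cross in blue. Open circles have under 5 reads, black bars give mean ± SD over embryos with at least 5 reads, and lines mark 50% and 70%. Reverse embryos lie at 80.1% or above for every gene, whereas forward embryos reach down to 40.5% in Mboat1.

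In the fit of strain and parent to all 16 allele libraries, 9 of the 10 genes passed an adjusted p of 0.1 for parent (edgeR), all toward the paternal allele, beside 1.42% of 12564 autosomal genes, or 1.11% counted toward the paternal allele. In the fit with embryo terms, which pairs the alleles, it was 10 of 10, beside 3.1% of all genes. Since the parental difference chose these genes, nothing is read from these counts. The fitted log2 differences, paternal minus maternal, were 5.03 (SE 0.74) for Fam198b, 2.97 (SE 0.46) for Tmem144, 4.05 (SE 0.56) for Gramd1b and 3.91 (SE 0.78) for E2f3. They were 2.66 (SE 0.71) for Mboat1, 1.71 (SE 0.45) for Dap, 2.16 (SE 0.65) for Ankrd33b and 2.48 (SE 0.56) for Bend4. Without forward embryo 2 the difference of E2f3 was 6.88, and without reverse embryo 1 that of Fam198b was 6.85, the embryos that held nearly all their maternal reads. These values rest on 2 maternal reads of E2f3 in reverse embryo 5 and 1 of Fam198b in forward embryo 2, so their size is not read. Without forward embryo 1 that of Mboat1 was 3.68. No fitted difference is given for Zfp202 and C330024D21Rik with 1 maternal read each.

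Whether both genes of a pair leaned the same way in the same embryo was counted with a 70:30 ratio as the mark. In 34 combinations of a pair and an embryo both genes had at least 5 reads. Both were at 70% paternal or more in 26 of these, 1 of them in 5 and neither in 3, and both were above 50% in 32. In the reverse cross both genes reached 70% in 19 of 19 combinations. In the forward cross both reached it in 7 of 15, 1 gene in 5 and neither in 3. These raw shares are not corrected for the B6 alleles, which took 57.4% to 58.3% of all reads. Since B6 is paternal in the reverse cross only, the 70% mark is easier to reach there. How many of all genes reached it in either cross was not counted. A minimum of 10 or 20 reads in place of 5, chosen after the data were seen, left 75.9% of 29 and 66.7% of 21 combinations with both genes at 70%, against 76.5% of 34.

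The pairs differed in how far both genes went together. For Gramd1b and Zfp202 both genes were at 70% or more in 7 of 7 embryos, although Zfp202 was the more paternal gene in 4 and Gramd1b in 0. For Fam198b and Tmem144 both were at 70% in 6 of 8 embryos, and in forward embryos 1 and 2 Fam198b alone reached it, at 100% and 95.7% against 68.0% and 58.5%. For E2f3 and Mboat1 both reached it in 5 of 7 embryos, and the genes parted in opposite directions. Mboat1 alone was below 70% in forward embryo 1, with E2f3 at 100%, and E2f3 alone in forward embryo 2, with Mboat1 at 85.7%.

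Dap and Ankrd33b stood on the same side of the mark in 8 of 8 embryos, below it in all 3 forward and above it in all 5 reverse embryos. Their shares differed by 0.575 to 15.3 percentage points within an embryo. For Bend4 and C330024D21Rik both genes were covered in 4 embryos, and both reached 70% in 3. The exception was forward embryo 3, with Bend4 at 60.7% and C330024D21Rik at 100% on 5 reads. The 2 genes of a pair come from the same library, and both were chosen for a paternal bias in these embryos. Their agreement was thus in part set by the choice, and these counts describe the embryos and have no test.

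**Figure D2:**
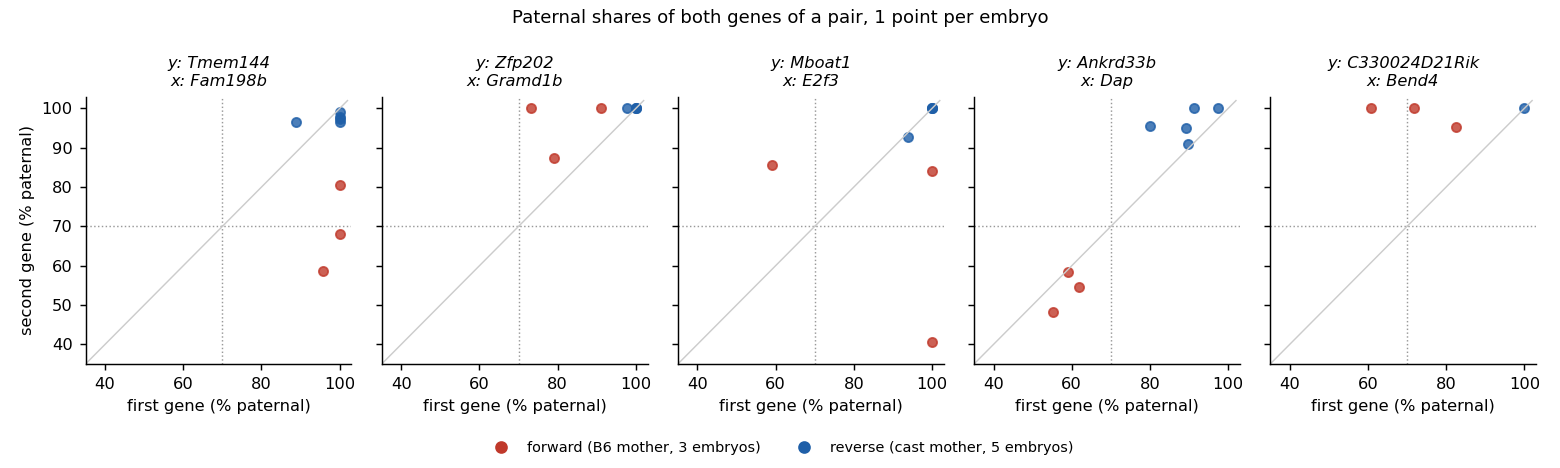
Paternal share of the second gene (y axis, %) against that of the first gene (x axis, %) for each pair, 1 point per embryo in which both genes had at least 5 reads, with dotted lines at 70% and a grey line of equal shares. Points overlie at 100%, and shares are not corrected for the larger number of B6 reads. The 19 reverse points (blue) all fall in the upper right corner, and 7 of the 15 forward points (red) do.

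The test of the strain difference asks whether the parental difference had the same size in both crosses, since the paternal allele is cast in the forward and B6 in the reverse cross. A strain effect on transcription and a cross-dependent strength of the parental bias cannot be told apart in this design, nor can a higher share of B6 reads at single genes. The overall excess of B6 reads is scaled out of this fit, since each allele library has its own size. It stays in the raw shares. Of the 10 genes, 8 had a negative log2 strain difference, cast minus B6, that is, fewer reads of the cast than of the B6 allele, beside 52.9% of the 12564 genes. The median was -0.92 for the 10 genes and -0.06 for all genes. For 7 genes with at least 5 reads in every embryo, the paternal share was higher in all reverse than in all forward embryos in 5 (Tmem144, Gramd1b, Dap, Ankrd33b and Bend4), beside 29.2% of 8399 such genes, and in 0 it was lower, beside 4.82%. The need for a paternal bias in both crosses limits how large this difference can be among genes chosen as these were.

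Of the 10 genes, 2 passed the threshold for strain, beside 15.4% of all genes. Both were toward B6, beside 10.9%, and 0 of 10 toward cast, beside 4.47% (edgeR quasi-likelihood test, Benjamini-Hochberg adjusted p at most 0.1). Tmem144 had a log2 difference of -1.53 (SE 0.45, adjusted p = 0.0269 in edgeR) and Gramd1b of -1.51 (SE 0.53, adjusted p = 0.0675). Tmem144 passed under all 14 alternatives, and Gramd1b lost the call when forward embryo 1 or 3 was left out, and likewise for reverse embryos 1, 2 and 5. Its log2 difference without forward embryo 1 was -1.37, and without reverse embryo 1 it was -1.06. Of the genes that did not pass, Mboat1 went from -1.18 to -0.58 and Fam198b from 1.21 to 0.53 without forward embryo 1, and E2f3 went from -0.69 to -0.19 and C330024D21Rik from -0.58 to 2.26 without reverse embryo 1.

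Both alleles of an embryo come from 1 library, and a fit with a term for each embryo, which uses this pairing, called 5 of the 10 genes, all toward B6, beside 25.5% of all genes and 15.7% toward B6. Besides Tmem144, at -1.70 (adjusted p = 2.24e-06), and Gramd1b, at -2.16 (adjusted p = 0.00232), these were Dap at -1.03 (adjusted p = 1.11e-04), Ankrd33b at -2.03 (adjusted p = 1.79e-04) and Mboat1 at -1.73 (adjusted p = 0.0580), all by edgeR. Without the term edgeR placed Dap at -0.89 (adjusted p = 0.227), Ankrd33b at -1.61 (adjusted p = 0.119) and Mboat1 at -1.18 (adjusted p = 0.331). Fam198b was the only member with a positive difference in both edgeR fits, 1.21 (SE 0.68, adjusted p = 0.298) and 1.23 (SE 0.77, adjusted p = 0.300). E2f3, Bend4, Zfp202 and C330024D21Rik passed in neither fit. Bend4 missed the threshold narrowly with the term, at -1.12 (SE 0.47, adjusted p = 0.100009, edgeR). Within no pair did both genes pass in the main fit without the term for the embryo, and with it this was so for Dap and Ankrd33b alone. Without the term, Dap and Ankrd33b also both passed in edgeR with 1 library size per embryo (adjusted p = 0.0655 and 0.0449). The same held without a filter on low counts (adjusted p = 0.0264 and 0.00131, edgeR).

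**Figure D3:**
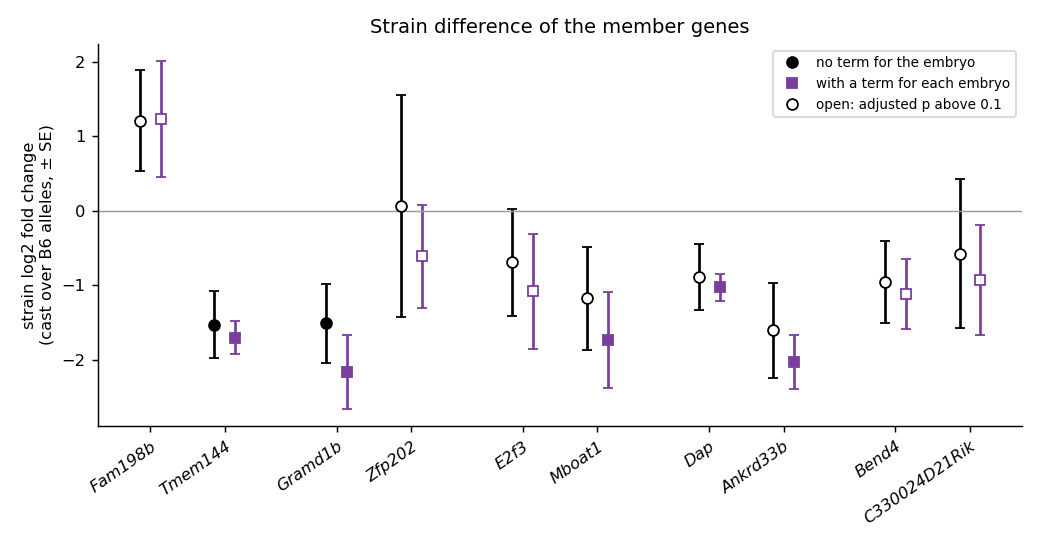
Strain difference (y axis, log2 of cast over B6 alleles, ± SE) of the 10 genes (x axis) in the fit without (black circles) and with (purple squares) a term for each embryo, over 16 allele libraries. Filled symbols have an adjusted p of at most 0.1, which holds for 2 genes without and 5 genes with the term.

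The level of each allele was set beside the shares and compared between the crosses by the overlap of embryos, without a test. Levels are CPM, the reads of an allele per 1000000 SNP-spanning reads of the embryo after TMM scaling, and in whole embryos fewer cells of a type and less RNA per cell cannot be told apart. For 5 of 10 genes, Tmem144, Gramd1b, Mboat1, Dap and Ankrd33b, the maternal allele was higher in every forward than in every reverse embryo, as it was for 16.2% of 12564 genes, and in 0 of 10 it was the reverse, beside 2.74%. The paternal allele was higher in every reverse than in every forward embryo for 0 of 10 genes, beside 13.7% of all genes, and lower for 0 of 10, beside 3.57%. The choice of genes with a low maternal share bears on these counts, which have no test. The maternal count was 5 of 10 without any one embryo and with total reads as library size.

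The maternal allele of Dap was at 581 ± 98.2 CPM over the forward (SD, n = 3) and 135 ± 128 over the reverse embryos (SD, n = 5). Its paternal allele was at 820 ± 64.2 and 1049 ± 485 CPM, with overlapping embryos. The maternal levels of the crosses thus did not overlap, and the mean paternal level was higher in the reverse cross. The part of each allele in the difference in share was not tested.

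With forward before reverse, Tmem144 had 55.1 ± 26.3 and 4.23 ± 2.39 CPM (SD, n = 3 and n = 5) of maternal reads, and 116 ± 16.5 and 163 ± 50.5 CPM of paternal reads. Ankrd33b had 32.4 ± 10.1 and 1.41 ± 2.05 CPM of maternal reads, and 37.6 ± 11.5 and 45.3 ± 34.3 CPM of paternal reads. For Gramd1b the maternal values were 5.13 ± 3.06 and 0.257 ± 0.575 CPM, and the paternal values 22.2 ± 6.10 and 49.1 ± 34.3 CPM. In each of these genes and in Dap the maternal levels of the crosses did not overlap, while the paternal levels did. The mean paternal level was nevertheless higher in the reverse cross in each of them. The gap was narrow in Gramd1b and Mboat1, where the forward embryo nearest to the reverse cross had 3 maternal reads and the highest reverse embryo 2.

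Mboat1 had 6.48 ± 6.05 and 0.305 ± 0.683 CPM of maternal reads, and Bend4 had 10.8 ± 6.99 and 3.74 ± 5.55 CPM with overlap. In Fam198b, Zfp202 and C330024D21Rik the maternal allele stayed at 5.04 CPM or below in every embryo of either cross. The maternal reads of E2f3 reached 16.1 CPM in forward embryo 2 and at most 1.53 CPM elsewhere.

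**Figure D4:**
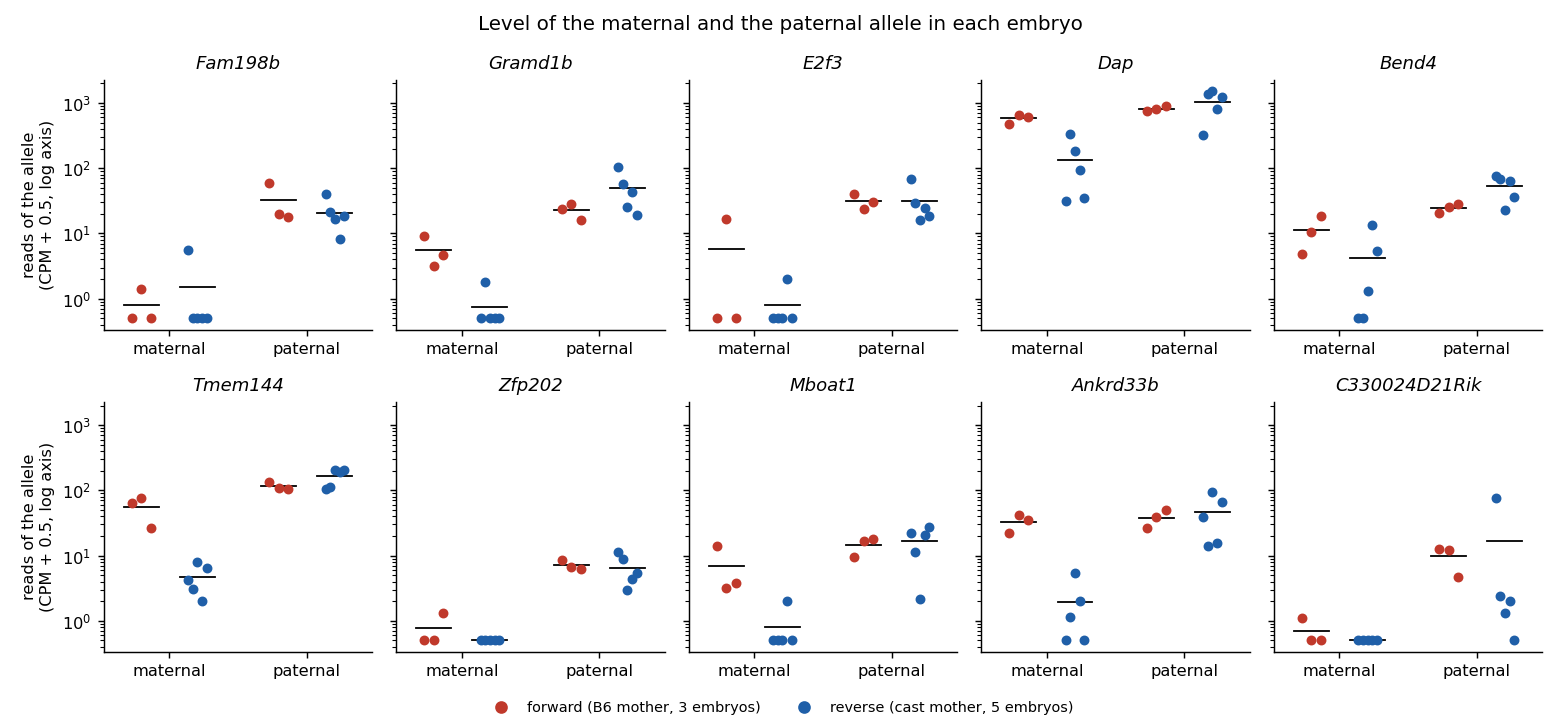
Level of the maternal and the paternal allele (y axis, CPM + 0.5 on a log axis) of the 10 genes, 1 point per embryo with the forward cross in red and the reverse cross in blue, and the mean as a black line. Neighbours stand above each other. Maternal points separate by cross in Tmem144, Gramd1b, Mboat1, Dap and Ankrd33b, and paternal points separate in none of the 10 panels.

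The summed level of both alleles was then compared between crosses, a measure that the choice of genes did not use. None of the 10 genes passed in edgeR's quasi-likelihood test, beside 0.0668% of 10482 genes (7 genes, and 152 without reverse embryo 1). In that test 0 of 10 had an unadjusted p under 0.05. DESeq2 called none of them either, but gave no adjusted p for C330024D21Rik. Dap was at 1401 ± 148 CPM over the forward (SD, n = 3) and 1184 ± 571 over the reverse embryos (SD, n = 5). Tmem144 was at 171 ± 35.4 and 167 ± 51.7 CPM. The log2 differences, reverse minus forward, ran from -0.59 (SE 0.56) in Ankrd33b to 0.86 (SE 0.53) in Gramd1b, and that of Fam198b went from -0.58 to 0.19 without forward embryo 1. The spread over embryos was wide in several genes. C330024D21Rik reached 76.9 CPM in reverse embryo 1, while the other reverse embryos were at 1.93, 0.816, 1.53 and 0 CPM. E2f3 reached 67.4 CPM in the same embryo, against 15.5 to 28.3 CPM in the other reverse embryos.

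The levels of both genes of a pair were also compared over the 8 embryos as log2(CPM + 0.5). Pearson's r was -0.27 for Fam198b and Tmem144, 0.57 for Gramd1b and Zfp202, 0.51 for E2f3 and Mboat1, 0.24 for Dap and Ankrd33b and 0.19 for Bend4 and C330024D21Rik. No pair passed in the exact two-sided permutation test, with p adjusted over the 5 pairs of 0.656, 0.557, 0.557, 0.656 and 0.656 and unadjusted p of 0.503, 0.141, 0.223, 0.608 and 0.656. Spearman's rho was -0.31, 0.60, 0.21, 0.48 and 0.24, with exact permutation p adjusted over the 5 pairs of 0.619, 0.608, 0.619, 0.608 and 0.619. Without the 2 embryos farthest from the median of the first gene, r was -0.64, -0.04, -0.26, -0.17 and -0.52. The positive values of 4 pairs were thus not kept, although leaving out extremes narrows the range of a gene and can itself lower r. Without reverse embryo 1 alone, r was 0.02 for the first pair and 0.30, 0.56, 0.40 and -0.24 for the others. Centred within crosses, r was -0.32, 0.76, 0.46, 0.12 and 0.42, with exact permutation p adjusted over the 5 pairs of 0.564, 0.562, 0.564, 0.894 and 0.564. A paternal bias in both genes thus stood beside total levels for which no shared variation was detected with 8 embryos.

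Around the pairs, 22 other genes of the table lie within 250 kb, 16 of which had enough reads for the test of parental alleles and 13 at least 20 reads in each cross. One of the 16 passed for parent, beside 1.42% of all genes. A neighbour that met the criteria of the study could itself have been placed in the list, so this count is not free of the choice. The neighbour that passed, Gm36569, is an antisense transcript that starts inside Fam198b and extends toward Tmem144 (chromosome 3, 79859293 to 79886806, minus strand). It had 2 maternal and 48 paternal, 1 and 19, and 10 and 16 reads in the forward embryos and 0 and 26, 0 and 29, 0 and 7, 0 and 0, and 0 and 3 in the reverse embryos.

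Gm36569 was therefore paternal in every embryo with reads, with a log2 difference of 3.38 (SE 0.92, adjusted p = 0.0924, edgeR). The call was lost without any one of forward embryos 1 and 2 and reverse embryos 1, 2, 3 and 7, at log2 differences of 3.03 to 3.44. Without forward embryo 3, which held 10 of its 13 maternal reads, it was 5.05 (adjusted p = 0.0117, edgeR), and in the fit with embryo terms 4.81 (adjusted p = 0.00141, edgeR). It overlaps Fam198b on the opposite strand, and whether counting used strand is not stated, so reads from their overlap cannot be told apart. No other gene of the table lies between the genes of a pair.

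The other 12 neighbours with at least 20 reads in each cross had parental log2 differences of -0.99 (Etfdh) to 0.33 (March6), and none passed. Clmp, a cell adhesion protein beside Gramd1b, was 55.9% ± 3.38 (SD, n = 3) paternal in the forward cross and 52.6% ± 19.3 (SD, n = 5) in the reverse cross. Cdkal1, a tRNA-modifying enzyme beside E2f3, was 51.3% ± 0.983 and 53.7% ± 6.30 paternal. Cct5, a chaperonin subunit beside Ankrd33b, was 47.1% ± 5.81 and 52.5% ± 5.33 paternal. These 3 genes were read about evenly from both alleles in both crosses, and so were Tmem33, with 48.3% ± 10.01 and 60.3% ± 6.91, and the zinc transporter Slc30a9, with 46.9% ± 10.3 and 51.2% ± 12.4, both beside Bend4.

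Other neighbours were read mainly from B6 alleles, and 3 of the 16 tested passed for strain, beside 15.4% of all genes. Strain differences of neighbours are from the fit without a term for each embryo, which does not use the pairing of alleles. Atp8a1, a phospholipid flippase beyond C330024D21Rik, was 16.9% ± 3.82 (SD, n = 3) paternal in the forward cross and 82.5% ± 14.3 (SD, n = 5) in the reverse cross, and had a log2 strain difference of -2.04 (SE 0.35, adjusted p = 2.64e-04, edgeR). Cmbl, a hydrolase, was 18.8% ± 8.55 and 73.0% ± 12.1 paternal with a strain difference of -1.35 (SE 0.49, adjusted p = 0.0802, edgeR). Both were thus maternal in the forward and paternal in the reverse cross, while Dap and Ankrd33b, on the chromosome of Cmbl, averaged 58.7% and 53.8% paternal in the forward cross. March6, an endoplasmic reticulum ubiquitin ligase, had 38.1% ± 5.33 and 72.9% ± 4.73, and Fam173b, a mitochondrial methyltransferase, 22.2% ± 10.5 and 60.3% ± 18.4, with strain differences of -0.73 (SE 0.36, adjusted p = 0.228) and -0.91 (SE 0.44, adjusted p = 0.205) in edgeR.

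Near Tmem144, Fnip2 was 28.5% ± 7.82 (SD, n = 3) and 55.2% ± 13.1 (SD, n = 5) paternal, the peptidyl-prolyl isomerase Ppid 33.8% ± 3.81 and 62.6% ± 8.33, and the mitochondrial Etfdh 18.5% ± 7.61 and 60.3% ± 31.0 (n = 4). None of the 3 passed for parent or strain in the fit without a term for each embryo, and their strain differences with that term are not given. Tmem144 was above 50% paternal in each forward embryo, and the difference between it and these neighbours was not tested.

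**Figure D5:**
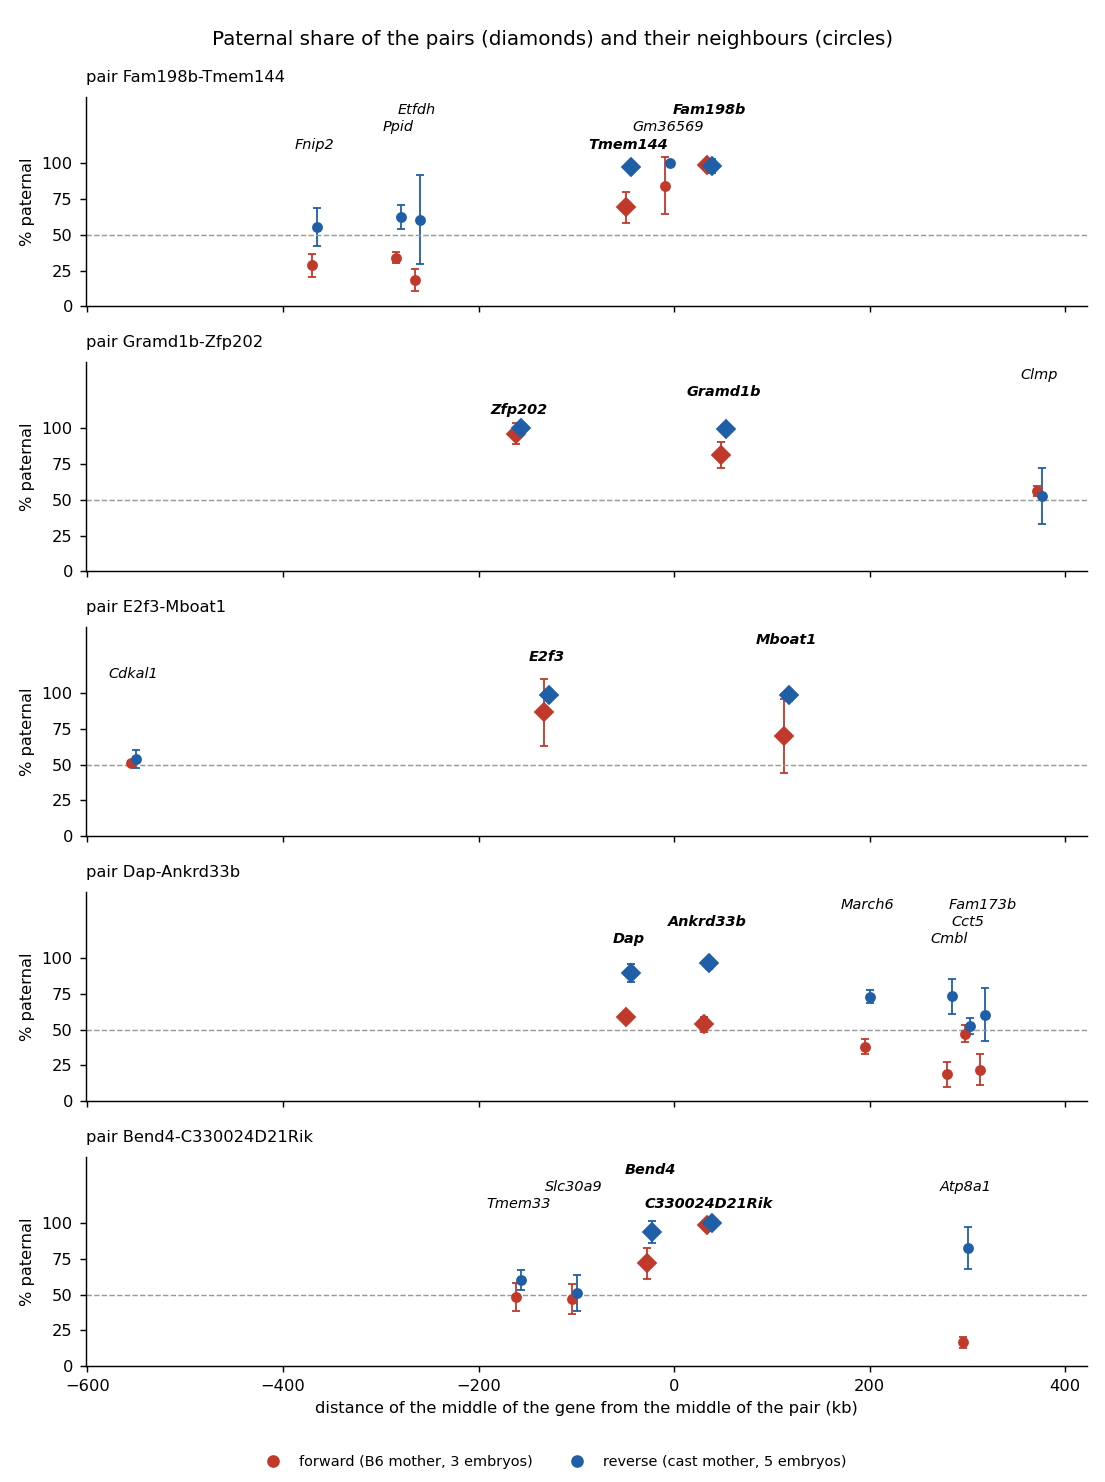
Mean paternal share (y axis, %, ± SD over embryos with at least 5 reads) of the paired genes (diamonds) and of neighbours with at least 20 reads in each cross (circles), placed by the distance of the middle of the gene from the middle of the pair (x axis, kb), with forward in red and reverse in blue. Gm36569 lies between Tmem144 and Fam198b at 84.2% and 100%, and Atp8a1 goes from 16.9% to 82.5% between the crosses.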

How the data were processed

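The authors deposited counts, without normalisation, of the SNP-spanning reads that each gene received from either strain in an embryo. According to their methods and processing notes, reads were aligned to mm10 with STAR (2.5.2b in the notes), reads mapping to several places were dropped, SAMtools 1.9-92 and bedtools were used, and reads over annotated SNPs were summed per gene in an intermediate step of Allelome.Pro. Reads without a SNP carry no allele and are not counted, so precision depends on the SNPs of a gene. The members and gene lists were chosen with earlier results of these data known.

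Maternal and paternal reads were assigned by cross. Genes with at least 10 reads in at least 1 of 16 allele libraries and an autosomal position (GENCODE M21 or RefSeq) were fitted with edgeR 4.0.16 (R 4.3.3, limma 3.58.1), using TMM factors, strain and parent as terms, the quasi-likelihood test and Benjamini-Hochberg adjustment over all 12564 genes, with a threshold of 0.1 as in the study. Strain and parent are balanced within embryos but not between crosses (3 against 5 embryos). The summed alleles were fitted by cross for 10482 genes with at least 10 reads in at least 3 embryos. Correlations used all 40320 pairings of 8 embryos (scipy 1.17.1, numpy 2.4.6), and 4.96e-05 is the smallest p this allows. Tests were tried on simulated data first.

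Named were all 10 members, and the neighbours within 250 kb that had at least 20 reads in each cross. Replicates are separate embryos. Alternatives were RLE factors, 1 library size per embryo, DESeq2 1.42.0, other filters, a pseudocount of 2 CPM, a block, and leaving out each embryo. The alleles of an embryo form a true pair, and their deviations correlated at 0.11 to 0.62. Allele levels by cross and other read minimums were added after seeing the data. Lists of cumulus, oviduct, red blood cell and oocyte genes were read as a check for other cells. They reached at most 11.3, 14.1, 51.2 and 19.0 RPM in any embryo. The red blood cell list, with counts for 2 of its 5 genes, had 201 maternal and 6 paternal reads. Alas2 alone gave 199 and 6 of them, so this skew rests on 1 gene and is not read as a sign of blood cells.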

Additional observations from a re-analysis of the deposited data

Results flagged for a closer look

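Of 18 groups of reverse embryos that were tested for an outlying embryo, 6 held an embryo set apart from the rest by Dixon's criterion (chance flags about 1 in 20 where values are not tied). The paternal share of Fam198b was 88.7% in reverse embryo 1 (exact 95% binomial interval 79.0 to 95.0), that of Gramd1b 97.8% in reverse embryo 2 (92.1 to 99.7), and those of E2f3 and Mboat1 93.9% (79.8 to 99.3) and 92.9% (76.5 to 99.1) in reverse embryo 5. In these 4 genes all other reverse embryos with at least 5 reads were at 100%, so any maternal read in 1 embryo alone meets the criterion and these 4 flags carry no weight. Reverse embryo 1 was set apart by its summed level of E2f3, 67.4 CPM, and of C330024D21Rik, 76.9 CPM.

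The strain term of the fit (edgeR, adjusted p at most 0.1), in which a strain effect and a parental effect that differs between the crosses cannot be told apart, passed in 2 paired genes, Tmem144 at a log2 difference of -1.53 and Gramd1b at -1.51 (cast minus B6). Among 16 tested neighbours it passed in 3, beside 15.4% of all genes, Atp8a1 at -2.04, Cmbl at -1.35 and 4930579G24Rik at -2.85 (SE 0.95, adjusted p = 0.0556). The last of these, a gene beyond Tmem144, had 41 maternal and 0 paternal reads in the forward cross and 8 and 9 in the reverse cross. It falls outside the rule for named neighbours and was chosen after its values were seen.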

How the results depend on the processing

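The number of paired genes called for strain was 2, and it was 3 with DESeq2, where Ankrd33b also passed (-1.86, adjusted p = 0.0468). It was 4 with 1 library size per embryo, 4 without a filter on low counts and 5 with a replicate block for each embryo. When single embryos were left out it was 1 to 2. The call lost in those runs was that of Gramd1b, and without reverse embryo 1 Dap passed in its place. Requiring at least 10 reads in every embryo left 7 of the 10 genes to test. For parent, 9 paired genes were called, 5 of 7 when at least 10 reads in every embryo were required, 6 to 8 without single embryos, and 10 both without a filter and with the block. Among the neighbours the count for parent was 1, with DESeq2 2 (Gm36569 and 4930579G24Rik, the latter toward the maternal allele), with at least 10 reads in every embryo 0, and without single embryos 0 to 1.

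Over all genes, strain was called in 1933, in 1062 with at least 10 reads in every embryo, in 3209 with the block and in 1205 to 2449 without single embryos. Parent was called in 178, and in 75, 412 and 390 with that filter, without a filter and with the block, and in 120 to 196 without single embryos. The cross difference in summed level was called in 7 genes, in 136 with DESeq2, 0 with at least 10 reads in every embryo and 144 without a filter. It was called in 2 to 152 genes without single embryos, and in 152 without reverse embryo 1. Of the paired genes 0 were called for it under any alternative, and 0 of 5 pairs for a correlation of levels.

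The paternal allele was higher in all reverse embryos in 0 paired genes, and in 0 to 1 without single embryos (Bend4, without reverse embryo 3). The share of combinations with both genes at 70:30 ranged from 66.7% to 82.8%.

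Signs changed in values that had not passed a test. The strain difference of Zfp202 was 0.06, but -0.25 with 1 library size per embryo, -0.61 with the block and -0.25 to 0.52 without single embryos. That of E2f3 ran from -1.19 to 0.70, the latter without forward embryo 2, and that of C330024D21Rik from -0.83 to 2.26, the latter without reverse embryo 1. The parental difference of Slc30a9 was -0.01, but 0.0098 with RLE factors, 0.012 with 1 library size per embryo, 0.016 with DESeq2, and -0.21 to 0.086 without single embryos. In the same runs it was -0.017 to 0.45 for Clmp, -0.40 to 0.10 for Cmbl, -0.14 to 0.039 for Cct5 and -0.10 to 0.38 for Atp8a1. The cross difference in level was -1.05 to 0.19 for Fam198b, -0.19 to 0.088 for Tmem144 and -0.25 to 0.0095 for Zfp202. The correlation r of levels was -0.62 to 0.020 for Fam198b and Tmem144, -0.065 to 0.74 for E2f3 and Mboat1 and -0.24 to 0.39 for Bend4 and C330024D21Rik. The cause of these changes was not tested.

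The embryo numbers shared by the crosses name no litter, and the deviations of same-numbered embryos correlated at 0.19, 0.0073 and 0.14, so they were not taken as pairs, although 2 of 3 forward embryos matched their own number best. A replicate block on embryos 1, 2 and 3 called 4 genes and 0 paired genes for the cross difference, and turned that of C330024D21Rik to -0.26. Depth limits Zfp202, with 71 reads in 8 embryos, and C330024D21Rik, where 1 reverse embryo had 5 or more reads.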
